A study of Mus musculus with 2 samples.

Results

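Venous-type endothelial cells are the blood vessel lining cells that carried RNA for P-selectin (Selp) or the chemokine-binding receptor Ackr1 in digested temporomandibular joints (TMJ, the hinge joint of the jaw). They were selected on measured values, by unique molecular identifiers (UMIs, the tags that count single RNA molecules) of the marker genes named in the next sentences. A barcode was kept if it showed 500 or more genes and a mitochondrial share of UMIs below 10%, and it was counted as endothelial when Pecam1, Cdh5, Kdr and Flt1 together had at least 3 UMIs and the leukocyte gene Ptprc had 0. An endothelial cell was venous-type when Selp and Ackr1 together had at least 2 UMIs, with at most 1 UMI of the capillary pair Car4 and Timp4 and at most 1 of the arterial pair Sema3g and Stmn2. The rule gave 120 cells of 10109 kept cells and of 2021 endothelial cells, 82 from the WT library and 38 from the Prox1 mutant library.

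The study took single-cell RNA-seq of the TMJ after complete Freund's adjuvant (CFA, an oil emulsion with killed mycobacteria that causes joint inflammation) was injected into the joint. WT mice were C57BL/6, and Prox1 mutant mice, on the same labelled strain, carried 1 changed copy of Prox1 (Prox1+/-), the transcription factor that directs lymphatic endothelial identity. Labels gave an age of 8 to 10 weeks for both groups, the study's text described the mice as female, and both groups received CFA. Untreated libraries were not analysed here. Each genotype had 1 library, the number of mice behind a library was not given in the sources used here, and the time from injection to collection of these libraries was not given either. The design thus allowed no test between genotypes: every interval below covers counting error only, and a difference between the libraries is a difference between 2 libraries.

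Postcapillary venules and small veins are the site where leukocytes leave the blood during inflammation. Their endothelial cells store P-selectin and von Willebrand factor (Vwf) in granules and put P-selectin on the surface within minutes of a stimulus, and cytokines then add E-selectin (Sele), Icam1 and Vcam1, which slow and hold rolling leukocytes. Venular cells also carry chemokines on their surface, and Ackr1 binds and transports these without signalling. Their junctions open to plasma more readily than those of arterioles, and interferon-gamma can make them show class II antigen-presenting molecules.

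The WT library held 5709 barcodes with 53517206 UMIs and the mutant library 7846 barcodes with 62446987 UMIs. In the WT library 4352 barcodes were kept and in the mutant library 5757. The 82 WT venous-type cells summed to 1391527 UMIs, with a median of 15151 per cell (range 1807 to 48967), and the 38 mutant cells to 565791, with a median of 13130 (range 921 to 36862). Venous-type cells were thus deeper than capillary-type cells (the same endothelial rule with at least 2 UMIs of Car4 and Timp4 and at most 1 UMI of each other pair), whose medians were 3881 and 5067. Their median share of mitochondrial UMIs was 2.24% and 2.21%, against 0.354% and 0.264% in capillary-type cells and 2.11% and 0.851% in arterial-type cells (at least 2 UMIs of Sema3g and Stmn2, at most 1 of each other pair). The part of these gaps in depth and mitochondrial share in any comparison of vessel types was not tested. Between the libraries 10 barcode sequences were shared, and 0 members carried one of them.

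Prox1 was at 11.6 CPM (UMIs of a gene per 1000000 UMIs of the same cells; 95% exact Poisson interval 10.7 to 12.6) over the kept cells of the WT library and at 5.80 CPM (5.18 to 6.47) over those of the mutant library. In all endothelial cells it was at 36.5 CPM (32.6 to 40.8) and 20.2 CPM (16.5 to 24.5). Venous-type cells went the other way, with 25 UMIs (17.97 CPM) in WT and 40 UMIs (70.7 CPM) in the mutant, of which 34 lay in 1 mutant cell. Rpl29, a protein of the large ribosomal subunit, set the libraries apart in all cell groups measured, at 577 CPM in the kept cells of WT and 14.1 CPM in those of the mutant, and at 816 and 17.7 CPM in venous-type cells. How the mutant allele alters the Prox1 transcript was not given in the sources used here.

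Of the kept cells, 1.88% were venous-type in WT (95% Clopper-Pearson interval 1.5 to 2.33) and 0.660% in the mutant (0.468 to 0.905), a difference of -1.22 percentage points (Newcombe interval -1.71 to -0.786). The mutant library also had fewer endothelial cells of any type, 13.6% of kept cells against 28.4%. Within the endothelial cells the venous-type share was 6.63% in WT (5.31 to 8.16) and 4.85% in the mutant (3.45 to 6.59). This difference of -1.78 points had an interval of -3.78 to 0.361, so it was within counting error at these settings. The interval lay wholly below no difference with at least 3 UMIs of Selp and Ackr1 (-2.48 points, -4.35 to -0.478). Leaving out the 10% of venous-type cells richest in markers of other cells left 77 WT and 31 mutant cells and gave -2.27 points (-4.15 to -0.258). Leaving out the venous-type cells with at least 10 UMIs of Stab2 or Prox1 left 81 and 34 cells and gave -2.21 points (-4.16 to -0.133). Both settings took cells from the venous-type count only, and the endothelial cells they were divided by stayed the same. Their shift follows from the members removed, so nothing is read from these intervals. Capillary-type cells made up 44.2% and 25.4% of endothelial cells and arterial-type cells 12.05% and 12.9%. With 1 UMI of Selp or Ackr1 as the limit instead of 2, the difference within endothelial cells turned to 0.288 points (8.00% in WT, 8.29% in the mutant), since the mutant library had more cells just under the limit. Shares of cells also follow how well each cell type came out of the digestion, which cannot be told apart from their number in the joint.

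Most members were well inside the rule. Selp and Ackr1 together had a median of 15.5 UMIs in WT members and 8.5 in mutant members, and 4 WT and 8 mutant members had exactly 2. Just outside, 17 WT and 27 mutant endothelial cells had exactly 1 UMI of the pair and were not taken. The capillary pair removed 7 WT and 0 mutant cells that had enough Selp and Ackr1, the arterial pair removed 8 and 3, and Ptprc alone removed 10 and 24. Selp carried the selection: 79 of 82 WT members and 37 of 38 mutant members had a Selp UMI, 54 and 21 had an Ackr1 UMI, and 51 and 20 had both.

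**Figure D1:**
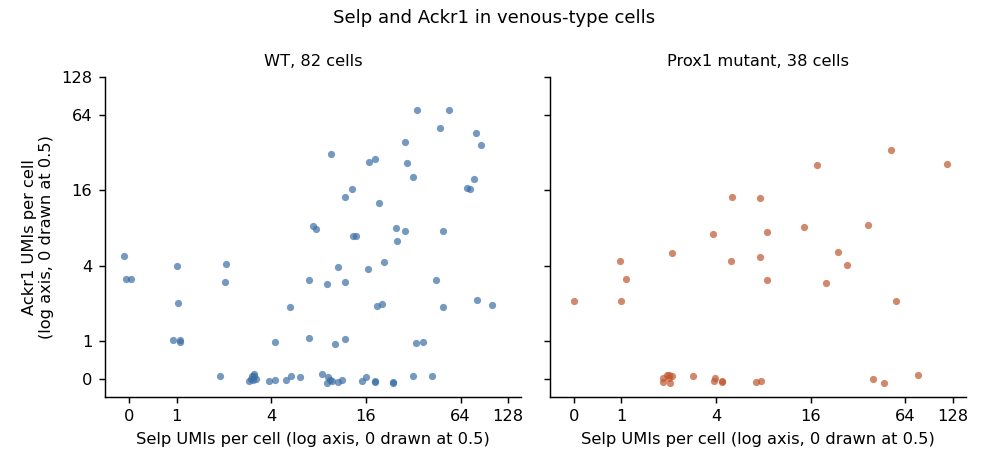
Selp (horizontal axis) against Ackr1 (vertical axis) UMIs per venous-type cell, log axes with 0 drawn at 0.5 and points moved slightly apart, in WT (82 cells, left) and Prox1 mutant (38 cells, right). Members lie along the bottom, with Selp and no Ackr1, or spread upward to 75 Ackr1 UMIs in WT and 33 in the mutant, and 51 WT and 20 mutant cells have both. The few with Ackr1 and no Selp lie at the left edge.

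Markers that the rule did not use were high in the same cells. Vwf, the clotting-factor carrier of endothelial granules, was at 394 CPM (WT) and 463 CPM (mutant), against 47.4 and 51.6 CPM in capillary-type cells and 95.6 and 129 CPM in arterial-type cells. Nr2f2, the nuclear receptor that sets venous identity, was at 441 CPM (WT) and 458 CPM (mutant), against 77.6 and 45.4 CPM in capillary-type cells. The pan-endothelial Pecam1, which the rule used, was at 1277 and 1133 CPM. The arterial gap-junction gene Gja4 had 4 UMIs in WT and 0 in the mutant venous-type cells, against 374 and 208 CPM in arterial-type cells. Of the lymphatic list, 5 genes were measured and 2 (Prox1 and the transcription factor Maf) were at least 2-fold above capillary-type cells in both libraries, and 0 below, where 6.49% of all genes compared were above and 7.29% below. Prox1 was in 12 WT cells with at most 4 UMIs each and in 4 mutant cells, at 17.97 and 70.7 CPM against 3.36 and 6.22 CPM in capillary-type cells, and Maf was at 21.6 and 42.4 CPM against 7.84 and 10.7 CPM in capillary-type cells. Without the 5 cells with at least 10 UMIs of Stab2 or Prox1, described further on, Prox1 was at 18.4 and 6.33 CPM and Maf at 14.7 and 23.2 CPM, and neither was 2-fold above capillary-type cells in both libraries. Flt4, the receptor of VEGF-C and the most abundant gene of that list, was at 40.96 and 74.2 CPM against 48.2 and 62.2 CPM in capillary-type cells, and Lyve1 and Pdpn had 1 to 2 UMIs a library.

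On GRCm38, the build of the files, Selp is at chr1:164115264-164150026 on the plus strand and Sele lies on the same stretch of the chromosome at chr1:164048234-164057677, plus strand. Ackr1 is at chr1:173331886-173333750, minus strand, and Vcam1 at chr3:116109949-116129688, minus strand. Cxcl9 (chr5:92321347-92328079) and Cxcl10 (chr5:92346638-92348889) lie close together on the minus strand, and Ubd is at chr17:37193892-37196095, plus strand.

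Promoter sequence is shown for 3 of the genes that were highest in venous-type cells against capillary-type cells, since all 3 are known cytokine targets and held a match to a motif searched. The 250 bases before the RefSeq start (GRCm38.p6) of each gene were searched on both strands for 3 gapped motifs. The kappaB motif, bound by NF-kappaB, was GGG, any 3 bases, then TTCC. The ISRE, the interferon-stimulated response element, was GAAA, any 2 bases, then GAAA. The GAS, the gamma-activated site, was TTC, any 3 bases, then GAA. Below, bases are 5′ to 3′ on the gene's strand and capitals mark the matches. The Cxcl10 stretch is chr5:92348964-92349122, minus strand, 233 to 75 bases before the start, with an ISRE first and 2 kappaB matches after it, none overlapping another:
Cxcl10: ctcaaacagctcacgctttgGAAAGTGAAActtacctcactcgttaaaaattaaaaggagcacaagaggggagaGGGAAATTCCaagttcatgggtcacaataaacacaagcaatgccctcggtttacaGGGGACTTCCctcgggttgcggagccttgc
The Ubd stretch is chr17:37193857-37193891, plus strand, 35 to 1 bases before the start, with 1 kappaB match:
Ubd: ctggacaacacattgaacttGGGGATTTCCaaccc
The Sele stretch is chr1:164048074-164048122, plus strand, 160 to 112 bases before the start, with 1 GAS match:
Sele: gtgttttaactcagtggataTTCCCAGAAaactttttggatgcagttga
Of the 15 genes with the highest ratio to capillary-type cells, 13 had a window in the RefSeq table. A kappaB match was in 3 of the 13 (23.1%; Cxcl10, Serpina3g, Ubd), an ISRE in 3 (Clca3a1, Cxcl10, Gpm6a) and a GAS in 4 (Gpm6a, Moxd1, Sele, Serpina3g). Over all 32851 windows of the table the shares were 4.65%, 2.98% and 7.02%. These are shares of windows, while the 13 were counted by gene. Gpm6a had 2 windows, so the units differ. A match describes letters in a window and does not show that a factor binds there.

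The comparison with capillary-type cells described what went with Selp and Ackr1. Since the rule chose the cells by their counts, no gene of it was tested. Of 9256 genes with at least 50 UMIs in the 2 cell types, 6.49% (601) were at least 2-fold higher in venous-type cells in both libraries, and 7.29% (675) at least 2-fold lower. The 15 genes with the largest smaller-of-2-libraries ratio, the genes of the rule left out, included Sele, Ubd, Stab2, Gpm6a, Serpina3g, Slco2a1, Gm30382, Kcnh1, Plvap, Clca3a1, Cxcl10, Pcdh7, Tacr1 and Moxd1. Stab2 was among them through few cells, with 90.6% of its WT UMIs and 76.2% of its mutant UMIs in 1 cell each. Sele encodes E-selectin, Ubd a ubiquitin-like modifier induced by interferon-gamma and TNF, Slco2a1 a prostaglandin transporter, Plvap the protein of the diaphragms of fenestrae and caveolae, and Tacr1 the receptor of the neuropeptide substance P.

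Plvap was at 1132 CPM (WT) and 852 CPM (mutant), against 28.7 and 8.89 CPM in capillary-type cells and 299.9 and 304 CPM in arterial-type cells. Slco2a1 was at 299.7 and 274 CPM, against 4.48 and 6.22 CPM in capillary-type cells. For both genes venous-type cells stood highest of the vessel types in both libraries, with arterial-type cells at 52.1 and 27.4 CPM for Slco2a1.

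Tacr1 had 259 UMIs in 25 WT venous-type cells and 54 in 8 mutant cells, and 0 in capillary-type cells of either library. Against a floor of 3 counts in the capillary-type cells of a library, it was at least 166-fold higher in WT and at least 35.8-fold higher in the mutant. Arterial-type cells had 107 CPM (WT) and 4.42 CPM (mutant). Pcdh7, a protocadherin of cell contacts, was at 828 and 1214 CPM, against 12.7 and 32.9 CPM in capillary-type cells.

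The venous and venular identity list held 20 genes, 19 of them with enough UMIs for the comparison with capillary-type cells. In both libraries 16 of the 19 were at least 2-fold higher, the rule genes Selp and Ackr1 among them, and 0 were 2-fold lower, against 6.49% and 7.29% of all genes. Il1r1, the receptor of interleukin-1, was at 389.5 and 428 CPM (capillary-type 84.7 and 68.5 CPM), and Il6st, the signalling chain of the interleukin-6 family, at 926 and 1163 CPM (capillary-type 144 and 190.3 CPM). Lrg1, a secreted glycoprotein of inflamed vessels, was at 748 and 597 CPM (capillary-type 18.3 and 22.2 CPM). Aqp1, the water channel, went the other way and was lower than in capillary-type cells, at 1420.0 and 1372 CPM against 2773 and 2982 CPM in capillary-type cells.

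Of the 14 measured genes of the capillary list 11 were at least 2-fold lower in both libraries, Car4 and Timp4 of the rule included, and 0 higher (all genes, 7.29% and 6.49%). Cd36, the fatty acid receptor, was at 270.2 and 313 CPM against 2939.6 and 2070.1 CPM in capillary-type cells. Lpl, lipoprotein lipase, was at 31.6 and 21.2 CPM against 1392 and 770.1 CPM in capillary-type cells, and Gpihbp1, which holds Lpl on the capillary wall, at 142 and 44.2 CPM against 972 and 659.8 CPM in capillary-type cells. Fabp4, the fatty acid carrier, differed less: 4244 and 2310.0 CPM against 8456 and 5663 CPM in capillary-type cells. The 10 genes lowest against capillary-type cells were Gm12002, Cdh23, Lrrc36, Lpl, Lrrc3b, Inka2, Stxbp6, Dlg2, Lnx1 and Cd247. Lnx1, a ubiquitin ligase, was at 27.3 and 26.5 CPM against 592 and 582 CPM in capillary-type cells, and Stxbp6, a partner of the secretion machinery, at 25.9 and 26.5 CPM against 751 and 1062 CPM in capillary-type cells.

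Of the arterial list 12 genes were measured, of which 5 were at least 2-fold lower than in capillary-type cells in both libraries (Efnb2, Dll4, Unc5b, and Sema3g and Stmn2, which the rule held low) and 2 higher (Fbln5, Eln), where 7.29% of all genes were lower and 6.49% higher. The list summed to 2567 and 3035 CPM, against 3233 and 3233 CPM in capillary-type and 5566 and 6302 CPM in arterial-type cells. Its most abundant gene in venous-type cells was Mecom, past 2-fold of capillary-type cells in neither direction in both libraries. Mecom was at 2044 CPM (WT) and 2556 CPM (mutant) in the cells with an Ackr1 UMI, and at 1946 and 2763 CPM in those without. Efnb2, the ephrin of arterial cells, was at 61.8 and 60.1 CPM against 409 and 401 CPM in arterial-type cells. Its venous partner Ephb4 was at 92.7 and 131 CPM, against 99.7 and 107 CPM in capillary-type cells, less than 2-fold apart.

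**Figure D2:**
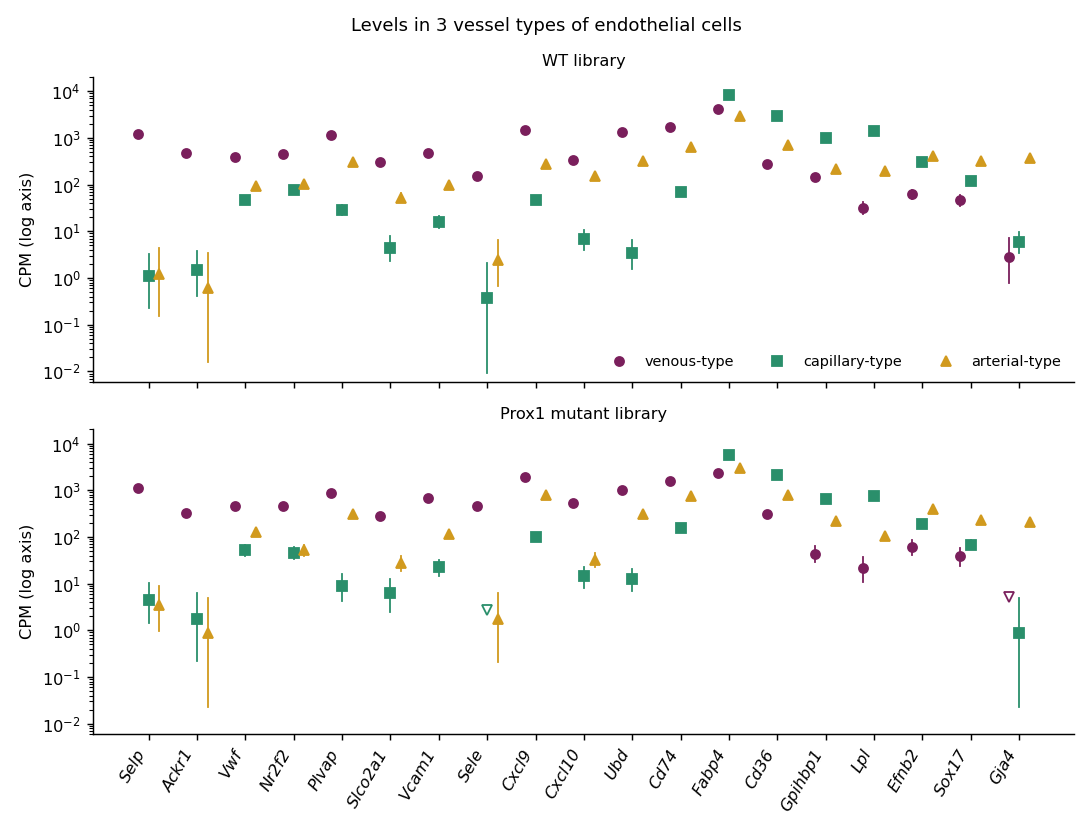
CPM (log axis) of 19 genes in venous-type (circles), capillary-type (squares) and arterial-type cells (triangles) of the WT library (top) and the Prox1 mutant library (bottom), with 95% Poisson intervals that cover counting error only, and open triangles at 3 counts where no UMI was found. Venous-type cells are highest from Selp to Cd74 in both libraries, for example Vcam1 at 484 and 688 CPM, and lowest for Lpl and Gpihbp1.

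Sele, Vcam1 and Icam1 were at least 2-fold higher in venous-type than in capillary-type cells of both libraries. Sele was at 152 CPM (WT) and 458 CPM (mutant), against 0.373 CPM (1 UMI) and 0 UMIs in capillary-type cells and 2.48 and 1.77 CPM in arterial-type cells. Vcam1, which binds the leukocyte integrin VLA-4, was at 484 CPM (WT) and 688 CPM (mutant), against 16.1 and 22.2 CPM in capillary-type cells and 99.95 and 116 CPM in arterial-type cells. Icam1, which binds LFA-1, was at 402 CPM (WT) and 537 CPM (mutant), against 88.1 and 83.6 CPM in capillary-type cells. Icam2, a resting counterpart, was at 155 and 111 CPM, close to the 146 and 157 CPM of capillary-type cells. Of 13 measured genes of the adhesion and transit list, 5 were at least 2-fold above capillary-type cells in both libraries (Sele, Icam1, Vcam1 and the rule genes Selp and Ackr1) and 2 below them (the junction molecules Jam2 and Jam3), beside 6.49% of all genes above and 7.29% below.

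The share of cells with a Sele UMI was 53.7% in WT and 55.3% in the mutant venous-type cells. After each cell was thinned to 2000 UMIs (2 cells of each library were too shallow and left out), it was 26.2% and 41.7%. Leukocytes (Ptprc of at least 2 UMIs and no UMI of the endothelial genes), which should lack Sele, had 0.148% and 0.120% after thinning and 0.137% and 0.416% before it, at median depths of 11494 and 8517 UMIs. The share of cells with a Sele UMI was thus far higher in venous-type cells than in leukocytes. The part of free RNA in the Sele counts was not tested. The genes of high endothelial venules, the lymph node vessels through which lymphocytes enter, were close to absent: Madcam1 and Fut7 had 0 UMIs in both libraries (which allows up to 3 counts), and Glycam1 had 49 UMIs in 7 WT cells, 23 of them in 1 cell, and 0 in the mutant.

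Of 10 measured chemokines and cytokines, 3 (Cxcl9, Cxcl10 and Il6) were at least 2-fold above capillary-type cells in both libraries and 1 (Cxcl12) below, with 6.49% of all genes above and 7.29% below. Cxcl9, a ligand of Cxcr3 on T cells and natural killer cells, was at 1480.4 CPM (WT) and 1889 CPM (mutant), against 47.4 and 99.6 CPM in capillary-type cells, 280.0 and 795 CPM in arterial-type cells and 154 and 319.6 CPM in all other kept cells. Cxcl10, a ligand of the same receptor, was at 339 CPM (WT) and 527 CPM (mutant), against 6.72 and 14.2 CPM in capillary-type cells and 155 and 32.7 CPM in arterial-type cells. Cxcl12, which retains cells through Cxcr4, was lower in venous-type cells, at 118 and 97.2 CPM against 666 and 717 CPM in capillary-type cells and 851 and 773 CPM in arterial-type cells. Of the neutrophil chemokines, Cxcl1 was at 20.8 and 28.3 CPM and Cxcl2 at 23.7 and 40.7 CPM. The monocyte chemokine Ccl2 had 8 UMIs in WT and 1 in the mutant, and Il6 61 and 20.

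Ubd was at 1326 CPM (WT) and 1036 CPM (mutant), against 3.36 and 12.4 CPM in capillary-type cells, 315 and 309 CPM in arterial-type cells and 25.9 and 27.99 CPM in all other kept cells. At 2000 UMIs a cell it was found in 38.8% and 38.9% of venous-type cells and in 0.296% and 1.08% of leukocytes. Serpina3g, a serine protease inhibitor induced by cytokines, was at 171 and 159 CPM, against 3.36 CPM and 0 UMIs in capillary-type cells. Serpina3g, the class I genes, the Gbp family, Iigp1 and the haemoglobin genes have near-identical copies, so their counts are uncertain between copies.

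Class II antigen presentation genes were higher in venous-type than in capillary-type cells. Cd74, the invariant chain, was at 1746 CPM (WT) and 1615 CPM (mutant), against 68.3 and 155 CPM in capillary-type cells and 626 and 769.9 CPM in arterial-type cells, and at 4043 and 4014 CPM in leukocytes. H2-Aa was at 412 and 544 CPM against 33.6 and 88.9 CPM in capillary-type cells, and H2-Ab1 at 312 and 366 CPM against 25.01 and 51.6 CPM in capillary-type cells. Ciita, the master regulator of class II genes, was at 30.9 and 76.00 CPM against 1.87 and 10.7 CPM in capillary-type cells. Of the 10 genes of the list, the 6 of the class II pathway (H2-Aa, H2-Ab1, H2-Eb1, Cd74, H2-DMa and Ciita) were at least 2-fold above capillary-type cells in both libraries, as were 6.49% of all genes. The class I genes H2-K1 (2489 and 2326 CPM; capillary-type 1539 and 1792 CPM) and B2m were not. The part of leukocyte RNA in the class II counts was not tested. The 7 macrophage genes listed summed to 134 and 110 CPM in the same cells, most of it Lyz2 (114 and 83.1 CPM), with Csf1r at 3 and 0 UMIs and Cd68 at 4 and 2 UMIs.

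Of the 22 genes of the broader interferon list, 0 were at least 2-fold above capillary-type cells in both libraries and 3 were below them (Ifit1, Ifit2 and Rsad2), against 6.49% and 7.29% of all genes. Gbp2 was at 698 and 699.9 CPM against 324 and 791 CPM in capillary-type cells, and Iigp1 at 1970.5 and 2503 CPM against 2354 and 2717 CPM in capillary-type cells. The antiviral gene Rsad2 was at 40.2 and 72.5 CPM against 385 and 347 CPM in capillary-type cells. Of 21 cytokine receptors and feedback genes, 6 were 2-fold above capillary-type cells in both libraries (Il1r1, Tnfrsf1a, Il6st, Ifngr2, Socs3 and Lrg1) and 0 below, next to the same shares of all genes. Tnfrsf1a, the main TNF receptor, was at 188 and 189 CPM against 81.4 and 74.7 CPM in capillary-type cells, and Socs3, the feedback inhibitor of interleukin-6 type signals, at 359 and 209 CPM against 125 and 93.4 CPM in capillary-type cells.

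Of 12 measured coagulation and vessel tone genes 8 were at least 2-fold above capillary-type cells in both libraries and 0 below (all genes, 6.49% and 7.29%). F8, factor VIII, was at 94.9 and 187 CPM against 8.96 and 10.7 CPM in capillary-type cells. Procr, the endothelial protein C receptor, was at 75.5 and 65.4 CPM against 20.9 and 8.00 CPM in capillary-type cells. Thbd, thrombomodulin, was lower in venous-type cells at 90.5 and 124 CPM against 183 and 152 CPM in capillary-type cells.

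Of the 15 junction and barrier genes, Plvap was the 1 gene at least 2-fold above capillary-type cells in both libraries, and 4 were below (Tjp1, Cav1, Cav2 and S1pr1). The count above was close to the 6.49% of all genes, and 7.29% of all genes were below. Cav1, the protein of caveolae, was at 650.4 and 500.2 CPM against 1838 and 2217 CPM in capillary-type cells, and Tjp1, a scaffold of tight junctions, at 288 and 242 CPM against 589 and 664 CPM in capillary-type cells. S1pr1, the receptor by which sphingosine-1-phosphate tightens the endothelium, was at 292 and 292 CPM against 726 and 621 CPM in capillary-type cells. Cdh5, VE-cadherin, which the rule used, was at 769.7 and 617 CPM against 917 and 917 CPM in capillary-type cells.

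Among 20 measured growth factor receptors and signalling genes, 5 were 2-fold below capillary-type cells in both libraries (Kdr, Flt1, Nrp1, Bmp6 and Notch4, the first pair used by the rule) and 2 above (Bmp4 and Aplnr, the apelin receptor), where all genes had 7.29% below and 6.49% above, so the count above was near that of all genes. Bmp6 was at 81.2 and 103 CPM against 1406 and 1461 CPM in capillary-type cells. Among 18 matrix genes, 4 were above (Col15a1, Col18a1, Mgp and Vcan) and 1 below (Sparcl1), the latter near the 7.29% of all genes and the former beside 6.49%. Col15a1, a collagen of basement membrane zones, was at 723 and 649 CPM against 67.6 and 48.02 CPM in capillary-type cells. Of 18 immediate early and heat shock genes, which respond to tissue digestion, 0 were past 2-fold in either direction in both libraries (all genes, 6.49% above and 7.29% below): Fos was at 1363 and 1062 CPM against 1049.7 and 617 CPM in capillary-type cells, and Jun at 1214 and 986 CPM against 1339 and 683 CPM in capillary-type cells.

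Venous-type cells of 1 library differed among themselves. Cxcl9 was without a UMI in 27 WT and 13 mutant cells, with medians per cell of 243 and 226 CPM and highest values of 13010.3 and 13482 CPM. The 5 WT cells with the most Cxcl9 held 46.6% of its WT UMIs and the 5 such mutant cells 70.2%. Across cells, the Spearman correlation of CPM between Cxcl9 and Ubd was 0.79 in WT (82 cells) and 0.83 in the mutant (38 cells), that between Ubd and Cd74 0.60 and 0.65, and that between Cxcl9 and Cd74 0.53 and 0.66. Selp and Cxcl9, the first a gene of the rule, gave -0.19 in each library. These are descriptions over cells that share a library and differ in depth: the cells with a Cxcl9 UMI had a median of 20574 UMIs in WT and 19337 in the mutant, against 7565 and 6292 in those without.

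In the cells with a Cxcl9 UMI, Ubd was at 1604 CPM (WT) and 1289 CPM (mutant), and in those without it at 59.8 and 34.98 CPM. Cd74 was at 1936 and 1825 CPM with Cxcl9 and at 881 and 787 CPM without. Selp was at 1139.6 and 935 CPM with Cxcl9 and 1512 and 1810.2 CPM without, and Vwf at 318 and 429.7 CPM with Cxcl9 and 738 and 595 CPM without. The rule asked for 2 UMIs of Selp and Ackr1 in every cell, which sets a higher Selp CPM in shallower cells, so nothing is read from the Selp values.

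**Figure D3:**
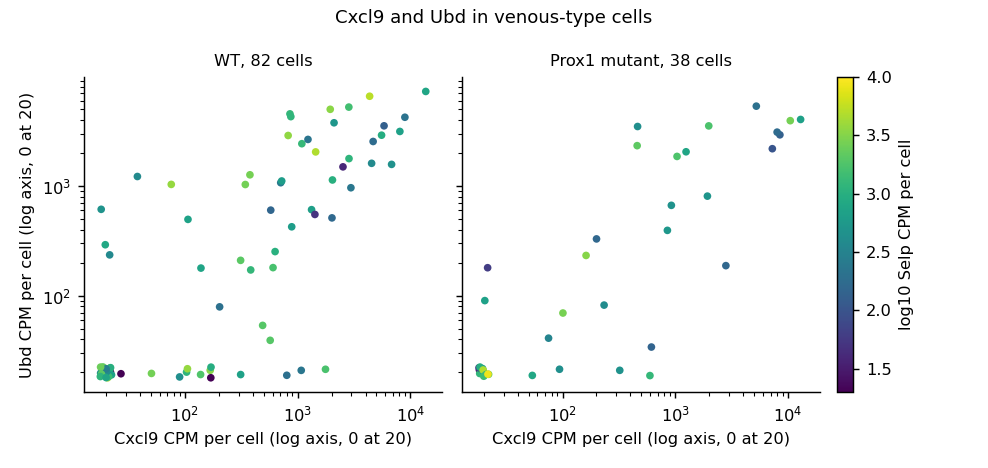
Cxcl9 (horizontal axis) against Ubd (vertical axis), CPM per venous-type cell on log axes with 0 drawn at 20 and points moved slightly apart, coloured by log10 Selp CPM per cell, in WT (left) and Prox1 mutant (right). Cells gather in the lower left corner with neither transcript or rise together toward the upper right, as the Spearman values of 0.79 and 0.83 describe.

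Cells with and without an Ackr1 UMI were set side by side. Of those with one, 3 WT cells and 1 mutant cell had no Selp UMI. In WT, Fabp4 was at 3358 CPM in the 54 cells with an Ackr1 UMI and 6355 CPM in the 28 without, Gpihbp1 at 62.2 and 333 CPM, Lrg1 at 835 and 542 CPM, and Sele at 188 and 68.04 CPM. In the mutant (21 and 17 cells) Fabp4 was at 2282 and 2356 CPM, Gpihbp1 at 20.01 and 83.3 CPM, Lrg1 at 743 and 361 CPM and Sele at 515 and 366 CPM. Ackr1 was a gene of the rule, so each cell without it had at least 2 UMIs of Selp, and the split was not tested. The cells with Ackr1 were deeper, with medians of 17247 and 15488 UMIs against 13237 and 13067.

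Of 7 measured genes of the sinusoid list, 6 were at least 2-fold above capillary-type cells in both libraries (Stab1, Stab2, Mrc1, Gpr182, Il6st and Adamts5) and 0 below, beside 6.49% of all genes above and 7.29% below. Part of this count rested on the 5 cells with at least 10 UMIs of Stab2 or Prox1. Without them Stab2 and Mrc1 had 8 and 10 UMIs in WT and 0 in the mutant, and Adamts5 was at 54.6 and 10.5 CPM against 19.8 and 19.6 CPM in capillary-type cells, so these 3 were not 2-fold above in both libraries. Il6st was then at 909 and 1171 CPM. Stab1, a scavenger receptor, was in 62 WT and 28 mutant cells, at 154 and 244 CPM against 55.2 and 96.04 CPM in capillary-type cells. Gpr182, a receptor of sinusoidal endothelium, was in 26 and 14 cells, at 28.7 and 51.3 CPM against 3.36 and 3.56 CPM in capillary-type cells. Without the same 5 cells, Stab1 was at 149.7 and 189.9 CPM and Gpr182 at 22.9 and 42.2 CPM, and Stab1 was then just under 2-fold above in the mutant. Stab2, a scavenger receptor of sinusoids, had at least 10 UMIs in 1 WT cell (77 UMIs) and 3 mutant cells (37, 50 and 278 UMIs). The WT cell also had 21 UMIs of Mrc1, 57 of Tfpi, 18 of Sema3a and 69 of Adamts5. All 4 cells lacked Vwf UMIs. The mutant cell with 278 Stab2 UMIs had 31 of Mrc1, 86 of Tfpi, 92 of Sema3a, 18 of Flt4 and 79 of Selp. The mutant cell with 50 had 28 of Mrc1, 127 of Tfpi and 111 of Sema3a. The mutant cell with 37, a shallow cell of 3238 UMIs, had 0 of Mrc1, 13 of Tfpi, 6 of Sema3a and 2 of Selp. A further mutant cell had 34 Prox1 UMIs with 4 of Selp, 77 of Cd74 and none of Lyve1, Pdpn or Mmrn1. Mki67, a marker of dividing cells, had at least 10 UMIs in 4 WT and 2 mutant cells, and the 5 cells with the most held 99.5% of its 221 UMIs in WT and of its 186 in the mutant.

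Most genes measured in venous-type cells lay within 2-fold between the libraries. Of 5923 genes with at least 50 UMIs over both libraries, 4.02% (238) were at least 2-fold higher in the mutant library and 5.0% (296) at least 2-fold lower, and the median log2 ratio of mutant to WT CPM was 0.01. Selp, with a log2 ratio of -0.12 (95% exact binomial interval -0.25 to 0.01), was within counting error, and Ackr1 was -0.55 (-0.79 to -0.31). Both were used to choose the cells. Cxcl9 had 0.35 (0.24 to 0.46), Cxcl10 0.63 (0.42 to 0.85), Ubd -0.36 (-0.49 to -0.22), Plvap -0.41 (-0.56 to -0.26) and Cd74 -0.11. None of these was past 2-fold. In all other kept cells Cxcl9 differed by 1.06.

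Over all genes measured between the libraries, 4.02% were past 2-fold higher in the mutant and 5.0% lower. Sele was the 1 gene past 2-fold of the 10 measured genes of the adhesion and transit list. Its 212 WT UMIs were spread over 44 cells and its 259 mutant UMIs over 21, which gave a log2 ratio of 1.59 (1.32 to 1.86). The richest cell had 22 UMIs (WT) or 33 (mutant), and without these the ratio was 1.60. The median per cell was 72.0 CPM for WT (quartiles 0 and 220.1) and 99.4 CPM for the mutant (0 and 496), so the groups of cells overlapped widely and the libraries differed mainly in their upper part. Across the alternative settings the log2 ratio ran from 1.09 to 1.68. Vcam1 (0.51, 0.32 to 0.69) and Icam1 (0.42, 0.21 to 0.62) differed in the same direction by less than 2-fold. Their medians per cell had the opposite order, at 339 CPM (WT) and 202 CPM (mutant) for Vcam1 and 336 and 302 CPM for Icam1.

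Tll1, a secreted metalloprotease of the BMP1 family, was the 1 gene of the 19 measured of the venous list past 2-fold. Of all genes, 4.02% were past 2-fold higher and 5.0% lower in the mutant, so this count was near theirs. Tll1 was at 250.1 CPM (WT) and 831 CPM (mutant) (log2 1.73, 1.53 to 1.94). Its median per cell was 87.3 CPM (quartiles 0 and 300.4) and 416 CPM (39.6 and 859). When the rule was applied to cells thinned to 2000 UMIs, which left 58 WT and 25 mutant cells, the log2 ratio was 0.27, and the other settings gave 1.46 to 1.94. Vcan, the proteoglycan versican, was at 38.1 and 171 CPM (2.17, 1.67 to 2.68), with 33 of its 97 mutant UMIs in 1 cell. Tfpi, the inhibitor of the tissue factor pathway, was at 127 and 463 CPM (1.86, 1.58 to 2.15). Without the 5 cells with at least 10 UMIs of Stab2 or Prox1 it was at 88.5 and 75.9 CPM (log2 -0.22), so its difference lay in these cells, while Tll1 stood at 257 and 987 CPM, Vcan at 39.1 and 203 CPM and Sele at 153 and 443 CPM.

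**Figure D4:**
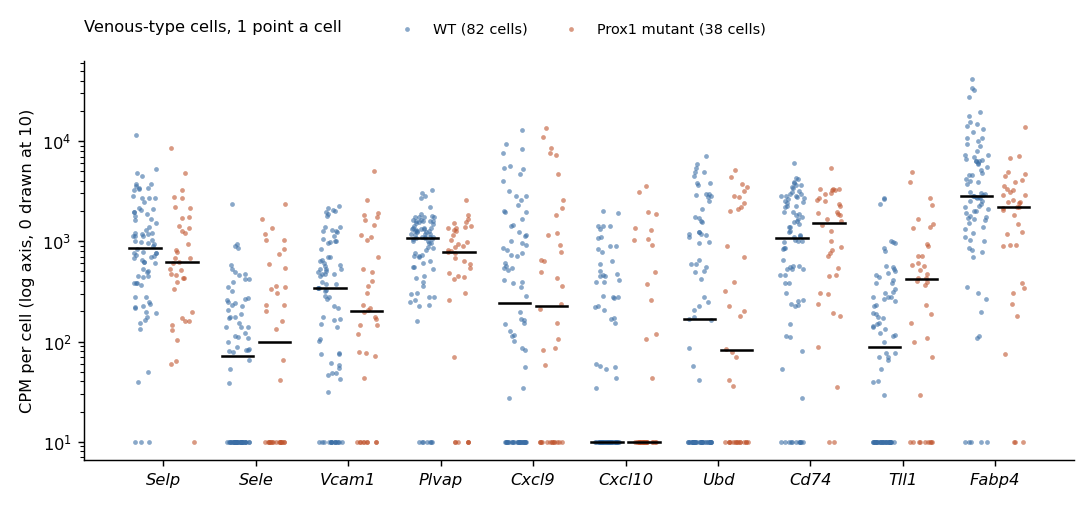
CPM per cell (log axis, 0 drawn at 10) of 10 genes in the 82 WT (blue) and 38 Prox1 mutant (orange) venous-type cells, 1 point a cell, with black lines at the medians. The cells of the libraries overlap for every gene, Tll1 has a median of 87.3 CPM (WT) and 416 CPM (mutant), and Fabp4 2813 and 2172 CPM.

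On the lower side, Fabp4 was at 4244 CPM (WT) and 2310.0 CPM (mutant), with a log2 value of -0.88 (-0.97 to -0.79), just under 2-fold. Under 4 settings it was past 2-fold: -1.25 with the rule on thinned cells, -1.18 as a mean of CPM per cell, -1.08 with 1 UMI of Selp or Ackr1 and -1.001 without the top cells. It also differed by -0.58 in capillary-type cells and -0.81 in all other kept cells, and by -0.01 in arterial-type cells. Gpihbp1 was at 142 and 44.2 CPM (-1.69, -2.35 to -1.08). Plat, tissue plasminogen activator, had 64 UMIs in 28 WT cells and 3 in 3 mutant cells (-3.12, -5.43 to -1.50; -1.17 with the rule on thinned cells), against a log2 ratio of -0.35 in capillary-type and -0.23 in arterial-type cells. Edn1, endothelin-1, the vasoconstrictor, was at 137 and 65.4 CPM (-1.06, -1.61 to -0.55). Without the cells with at least 10 UMIs of Stab2 or Prox1, Edn1 was at 140 and 78.05 CPM, under 2-fold. Of the heat shock genes, Hspa1b was at 116 and 33.6 CPM (-1.79, -2.56 to -1.10) and Hspa1a at 86.95 and 40.7 CPM, with Hspa1b at -2.37 in capillary-type and -1.77 in arterial-type cells. Hspb1 was past 2-fold with 303 of 661 WT UMIs in 1 cell, and without the top cells its log2 ratio was -0.59.

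By list of endothelial and response genes, most members lay within 2-fold between the libraries, and the lists of other cells follow after these. Among 22 interferon genes 0 were higher in the mutant and 1 lower (Isg15, an antiviral ubiquitin-like protein, 130.1 and 61.9 CPM), with a median log2 ratio of -0.11. Of 20 cytokine receptors and feedback genes 0 were past 2-fold (median 0.03), and likewise 0 of 15 junction and barrier genes (median -0.25). Antigen presentation had 1 higher of 10 (Ciita, 30.9 and 76.00 CPM; median -0.04), and chemokines and cytokines 1 higher of 8 (Csf1, the macrophage growth factor, 28.03 and 58.3 CPM; median 0.47). Coagulation and vessel tone had 1 higher (Tfpi) and 2 lower (Plat and Edn1) of 12. Without the cells rich in Stab2 or Prox1, Tfpi and Edn1 were under 2-fold. Matrix genes had 1 higher (Vcan) and 3 lower (Lama5, Nid2 and Fn1) of 17, with a median of -0.36. Growth factor receptors had 0 higher and 1 lower (Notch4) of 16, division genes 2 higher (Mki67 and Top2a) and 1 lower (Cdk1) of 10, and immediate early and heat shock genes 0 higher and 3 lower of 18 (median -0.24). Of the mutant UMIs, 182 of 186 for Mki67 and 60 of 67 for Top2a lay in 2 cells, and without the top cell of each library the log2 ratios were 0.71 and 0.62, under 2-fold. The capillary list had 1 higher (Meox2) and 1 lower (Gpihbp1) of 9 and the arterial list 1 higher (Jag1) and 2 lower (Dll4 and Alpl) of 8. The sinusoid list had 3 higher (Stab2, Mrc1 and Adamts5) of 7, which rested on the Stab2-rich cells: without the cells rich in Stab2 or Prox1, Stab2 had 8 WT and 0 mutant UMIs, Mrc1 10 and 0, and Adamts5 was at 54.6 and 10.5 CPM. Prox1 was past 2-fold in the lymphatic list (1 of 3) through 34 UMIs in 1 cell. Without the top cell of each library its log2 ratio was -0.48, and those of Fn1 (-0.68) and Meox2 (0.97) were under 2-fold. All of these shares stand beside the 4.02% and 5.0% of all genes.

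The 10 genes with the highest ratio, among those with a UMI in at least 10% of the mutant cells, were Gm5127, Sema3a, Ston2, Esrrg, Robo2, Adamtsl1, Grik2, Tmem117, E2f2 and Rbfox1. Several rested on few cells. Sema3a, a repulsive guidance factor, had 43 UMIs in WT and 229 in the mutant, of which the cell with the most held 111, and without the cells rich in Stab2 or Prox1 its log2 ratio went from 3.71 to 1.19. In the same setting Ston2, an adaptor of endocytosis, went from 3.12 to 0.52 and Tmem117 from 2.66 to 0.03, both under 2-fold. Rbfox1, an RNA splicing factor, had 90 of 120 mutant UMIs in 1 cell, and Grik2, a glutamate receptor subunit, 40 of 44. Gm5127, an unnamed gene model, had 82 UMIs in 5 mutant cells and 12 in 5 WT cells. E2f2, a cell cycle factor, also differed in all other kept cells (41.1 and 94.7 CPM).

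The 10 lowest were Rpl29, Spp1, Igfbp3, Serpine2, Plat, Tnc, Slfn4, Ms4a6d, Gm13889 and Nox4. Rpl29 was low in every cell group of the mutant library, as given above. Spp1, osteopontin, had 464 of its 489 WT UMIs in 1 cell. Igfbp3, which binds insulin-like growth factors, was spread more widely: 184 UMIs in 27 WT cells and 3 in 2 mutant cells, against 440.2 and 345 CPM in arterial-type cells and 75.03 and 86.3 CPM in capillary-type cells, which did not differ 2-fold between the libraries. Its log2 ratio was -4.64 (-6.93 to -3.07) and ran from -5.85 to -2.55 over the settings. Ms4a6d, a membrane protein of myeloid cells, had 134 UMIs in 32 WT and 8 in 4 mutant cells, and Slfn4, an interferon-regulated gene, 55 in 17 and 3 in 3. Serpine2, Tnc and Nox4 had 53 of 103, 55 of 99 and 33 of 73 WT UMIs in 1 cell each.

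**Figure D5:**
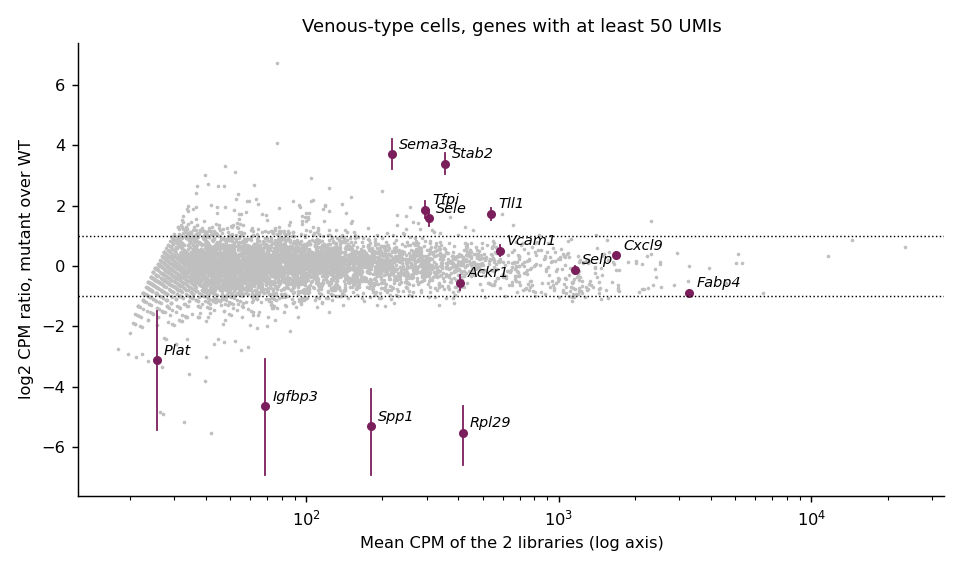
log2 ratio of mutant to WT CPM (vertical axis) against the mean CPM of the libraries (horizontal log axis) for the 5923 genes with at least 50 UMIs in venous-type cells (grey), with named genes in purple and 95% binomial intervals that cover counting error only. Dotted lines mark 2-fold. Sele, Tll1, Tfpi, Stab2 and Sema3a lie above them, Rpl29, Spp1, Igfbp3 and Plat below, and Selp, Cxcl9 and Vcam1 between.

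Markers of other cells were looked up in the same cells. All 7 erythroid genes were found, summing to 18595 CPM (WT) and 26020.2 CPM (mutant) (in capillary-type cells 15235 and 19173 CPM), with Hbb-bs, a haemoglobin chain, as the most abundant at 10274 and 12927 CPM. All 7 neutrophil genes were found in the mutant and 6 in WT, where Mmp8 was at 0, and they summed to 113 and 403 CPM against 364 and 1028 CPM in capillary-type cells. Their most abundant gene S100a8 was at 38.8 and 150.2 CPM in venous-type cells and at 16886 and 24323 CPM in leukocytes. The macrophage sums stand with the class II genes above. The 7 platelet genes summed to 23 and 35.3 CPM, with Gp1bb and Treml1 at 0 and Itga2b, the most abundant, at 22 and 11 UMIs, beside 1679 and 629 of Selp, whose product platelets also hold. The 7 lymphocyte genes summed to 2.16 and 5.30 CPM, with Cd79a, Cd3e, Cd3g and Nkg7 at 0. Fibroblast genes summed to 346 and 136 CPM, mural genes to 273 and 124 CPM, Schwann genes to 132 and 315 CPM and muscle genes to 52.5 and 68.9 CPM, with Acta1, Myh4, Ckm, Tnnt3 and Pax7 at 0. Single cells made up much of the fibroblast and mural sums: 86 of 88 Rgs5 UMIs and 101 of 134 Col1a2 UMIs lay in 1 WT cell each. Between the libraries, beside the 4.02% and 5.0% of all genes past 2-fold higher and lower, 3 of 4 measured fibroblast genes (Col1a1, Col1a2 and Col3a1) and 2 of 3 mural genes (Rgs5 and Tagln) were lower in the mutant, and 2 of 2 neutrophil genes (S100a8 and S100a9), 2 of 3 Schwann genes and 2 of 7 erythroid genes (Hba-a2 and Slc4a1) were higher. The single macrophage and muscle genes measured were within 2-fold, and no platelet or lymphocyte gene had enough UMIs. The part of these cells, and of free haemoglobin and neutrophil RNA, in the differences between the libraries was not tested apart from the log2 ratios without the 10% of cells richest in these markers, which for Sele was 1.38 and for Tll1 1.77.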

How the data were processed

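Cells of digested TMJ were captured with a 10x Genomics 3′ kit, and the authors aligned the reads with Cell Ranger 7.0.1 to GRCm38 (mm10) and deposited UMI counts per gene and barcode (32285 features). The labels and the study's methods name different kit versions, and they also differ on the digestion enzymes. Counts were used as deposited. Barcodes needed 500 or more genes and a mitochondrial share below 10%, as in the study's methods, and no doublet caller was run: cells with Ptprc were left out by the rule, and UMIs of other markers are given in the text. UMIs were summed over the cells of a type in a library and given as CPM, with 95% exact Poisson intervals, and ratios with exact binomial intervals (scipy 1.17.1, pandas 2.3.3, Python 3.11.15). A gene was called past 2-fold at 50 UMIs or more, and a side at 0 was set to a floor of 3 counts. PCR and cell capture are not covered by these intervals. Genes were named if they belonged to the gene lists (those with the highest sums of UMIs and those past 2-fold), were among the 10 highest and 10 lowest between libraries with a UMI in at least 10% of cells of the higher library, or were among the 15 highest and 10 lowest against capillary-type cells. Not every such list member is given a value. Entpd1, Ptprb, Col4a1 and Tubb5 are examples, the most abundant of the coagulation, junction, matrix and division lists. Further members of the lists were named for their function after their values were seen. Ccl21a and Ccl19 (symbols on more than 1 row), Cd99 and Cxcl11 (symbols not matched) have no values here. Values of some genes are not reported here. The members and lists were chosen with earlier results of these data known. Gene positions came from the GENCODE annotation of GRCm38 and promoter windows from RefSeq. The ratio script was checked on simulated data. Alternatives changed the filters, the rule, the thinning to 2000 UMIs, the weighting, the minimum of UMIs and the fold.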

Additional observations from a re-analysis of the deposited data

How the results depend on the processing

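Cell shares came from 2 libraries and no test of genotype was possible, so the intervals say nothing about mice. The share of venous-type cells among kept cells was lower in the mutant library under all 7 alternative settings of filter and rule, by 0.952 to 1.51 points. That among endothelial cells differed by 0.288 points in the other direction with at least 1 UMI of Selp and Ackr1. Its interval left out 0 with at least 3 UMIs (-2.48 points, -4.35 to -0.478). It was -2.27 (-4.15 to -0.258) without the 10% of venous-type cells richest in markers of other cells. Without the venous-type cells rich in Stab2 or Prox1 it was -2.21 (-4.16 to -0.133). Both of these settings removed venous-type cells only and left the other endothelial cells unfiltered, so nothing is read from their intervals. The counts of genes followed the limits. With at least 20 UMIs, 466 genes were past 2-fold higher and 672 lower in the mutant. At 200 UMIs the counts were 47 and 55, with 318 over and 408 under capillary-type cells. A fold of 1.5 gave 774, 954, 1152 and 1332 in the same order. Leaving out the cell with the most UMIs of each gene raised the genes lower in the mutant from 296 to 451. Of the genes past 2-fold whose ratios were followed across the settings, 3 turned direction. Rbfox1 was -0.41 under the stricter cell filter of 1000 genes and 5% mitochondrial UMIs. It was -0.10 without the cells with at least 10 UMIs of Stab2 or Prox1, a setting chosen after seeing the data. Grik2 was -0.88 under the stricter filter and Tfpi -0.22 without those cells. Stab2, Mrc1, Adamts5 and Prox1 were not followed in this way, and they also turned direction without those cells. Edn1 was then under 2-fold. Of the followed genes within 2-fold, Cxcl9 was -0.02 with at least 3 UMIs of Selp and Ackr1, and Selp 0.12 when the rule was applied to thinned cells. Ston2 and Tmem117 were under 2-fold under the stricter filter (0.86 and 0.44) and without the cells rich in Stab2 or Prox1, and Tll1 with the thinned rule. Rbfox1 was also under 2-fold without the top cells (0.86). Fabp4 passed 2-fold under 4 settings. Some called genes stayed past 2-fold with a value over 1.5-fold nearer to 0, and each is given at its value nearest to 0. With at least 1 UMI of Selp and Ackr1 these were Nox4 (-1.13), Serpine2 (-1.96), Igfbp3 (-2.55) and E2f2 (1.97). The thinned rule gave Plat (-1.17), Tnc (-1.82) and Gm5127 (2.85). Mean CPM per cell gave Slfn4 (-1.22), Esrrg (1.72) and Ms4a6d (-1.87). Leaving out the top cells gave Spp1 (-1.37) and Gm13889 (-1.84). Sema3a was at 1.19 without the cells rich in Stab2 or Prox1. No paired analysis was possible because each genotype had 1 library.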
